A study of Caenorhabditis elegans with 36 samples.

Results

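The nuclear hormone receptor genes of Caenorhabditis elegans named nhr with a number were followed across the embryo, the first larval stage (L1) and the L4 stage in animals with altered xnp-1, whose product is the C. elegans counterpart of ATRX, a chromatin remodelling protein. The set holds every gene whose symbol is nhr and a number in the deposited gene tables, except the moulting regulators nhr-23 and nhr-25, which gives 267 of 46926 listed genes. Whole-organism poly(A) RNA was sequenced from 24 libraries in 8 groups of 3 biological replicates. At 20 °C the groups were xnp-1 L1 larvae, N2 L1 larvae, xnp-1 embryos and N2 embryos, where N2 is the wild-type strain, embryos came from bleached adults fed OP50, and L1 larvae were embryos held for about 11 h in M9 buffer without food. At 25 °C, xnp-1;gsox-1, xnp-1, gsox-1 and N2 larvae were collected at L4. The deposited design describes the embryo and L1 work as a knockdown of xnp-1 and the L4 work as mutant backgrounds, and no allele is named in the labels used here. The embryo and L1 libraries bear another kind of library name than the L4 libraries and were counted with other settings, so levels were never compared across these 2 tables.

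Nuclear receptors are transcription factors that bind DNA through a paired zinc-finger domain and often bind a small lipid-like ligand through a further domain. The family expanded greatly in nematodes, and most worm members descend from an ancestor related to the vertebrate receptor HNF4, while a small remainder are orthologues of receptors found in flies and mammals. In worms the studied members act mostly in the intestine, hypodermis and nervous system, where they control fat and propionate metabolism, responses to food, toxins and microbes, and the timing and fate of cells. A family of this size contains close copies. Reads with a mapping quality under 10 had been left out of the counts, and whether reads were shared between close copies was not checked.

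Each embryo and L1 library held between 29896459 and 41520291 counted fragments, and each L4 library between 39004451 and 45391494 counted reads. Levels below are TMM-scaled CPM, and CPM per kilobase of annotated exon length where genes are set against each other. RNA of xnp-1 itself was 131.5 ± 7.72 CPM in xnp-1 embryos against 401.1 ± 28.0 CPM in N2 embryos, and 46.0 CPM in xnp-1 L4 larvae against 75.5 CPM in N2 L4 larvae, both lower by edgeR's test (adjusted p = 5.98e-05 and adjusted p = 0.0131). In L1 larvae it averaged 170.4 CPM in xnp-1 and 249.1 CPM in N2, which did not pass (adjusted p = 0.135). RNA of gsox-1 averaged 78.5 CPM in gsox-1 and 56.9 CPM in N2 L4 larvae, so it checks no label. The 3 xnp-1 L4 libraries stood apart from the other 9: summed oocyte markers were 5180 to 6332 CPM in xnp-1 against 157 to 359 CPM in N2, summed yolk protein genes 17337 to 30617 CPM against 56.1 to 583 CPM, summed adult collagens 2574 to 2785 CPM against 2.77 to 80.1 CPM, and summed moulting markers 135 to 356 CPM against 3258 to 5300 CPM. In xnp-1;gsox-1 L4 larvae the same sums were 140 to 352, 7.79 to 21.0, 1.54 to 12.4 and 3314 to 5005 CPM. Summed major sperm protein genes overlapped, at 1443 to 1736 CPM in xnp-1 and 1166 to 2250 CPM in N2 L4 larvae. Of 30 tested, 3 were called higher and 5 lower in xnp-1. All 12 oocyte markers were called higher and all 8 moulting markers lower in xnp-1 than in N2 at L4, so the 3 xnp-1 libraries labelled L4 held RNA of adult and oocyte genes, and genotype and developmental progress cannot be told apart in any L4 comparison that uses them. Among embryos, xnp-1 replicate 1 stood apart, with 1537 CPM of oocyte markers against 692 to 788 CPM in the other embryo libraries. Its summed early zygotic markers were 436 CPM, against 198 to 244 CPM in the other embryo libraries.

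Most of the family was transcribed at a low level at every stage. Of the 267 genes, 192 averaged at least 1 CPM per kilobase in xnp-1 L1 larvae, 196 in N2 L1 larvae, 181 in xnp-1 embryos and 184 in N2 embryos. At L4 the counts were 170 in xnp-1;gsox-1, 160 in xnp-1, 171 in gsox-1 and 164 in N2 larvae. A level of 10 CPM per kilobase was reached by 85 genes in xnp-1 L1 larvae, 92 in N2 L1 larvae, 66 in xnp-1 embryos and 68 in N2 embryos, and by 26 to 30 genes in the L4 groups. No fragment was counted for 1 of the genes in any embryo or L1 library, and no read for 6 in any L4 library. The filter on low counts kept 232 of the genes among 17687 tested in embryos and L1 larvae, and 209 among 17492 tested at L4. Counts of called genes below refer to these kept genes. Genes named below by the size of their change were also picked for groups whose libraries did not overlap. For those genes a lack of overlap adds no support to the call.

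The highest level per length in embryos and L1 larvae belonged to nhr-49, a relative of HNF4 that controls fat desaturation and the fasting response (WBGene00003639, chromosome I 9869651 to 9874680, in the coordinates of the deposited tables, gene set WS280). It averaged 126.9 CPM per kilobase in xnp-1 L1 larvae, 123.7 in N2 L1 larvae, 120.6 in xnp-1 embryos and 116.1 in N2 embryos. The level of nhr-49 therefore stayed within a narrow range at both stages, and none of the stage or genotype comparisons called it there. At L4 the highest level per length was that of nhr-68 in xnp-1;gsox-1, xnp-1 and N2 larvae and that of nhr-114 in gsox-1 larvae. The level of nhr-68, which drives the propionate shunt together with nhr-10, was 102.2 CPM per kilobase in xnp-1;gsox-1, 57.9 in xnp-1, 92.9 in gsox-1 and 107.3 ± 25.8 in N2. The level of nhr-114, which acts in the methionine cycle and lets worms grow on certain bacterial diets, was 71.1 CPM per kilobase in xnp-1;gsox-1, 46.4 in xnp-1, 104.8 in gsox-1 and 96.6 ± 31.2 in N2. The order of nhr-68 and nhr-114 in N2 rests on means whose standard deviations overlap.

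Between the embryo and L1, more nhr genes were called higher than lower in both genotypes. All L1 larvae had been held without food, so stage and lack of food cannot be told apart in any L1 against embryo comparison. In xnp-1 animals, 90 of 232 tested nhr genes were called higher in L1 larvae than in embryos (38.8%, where 35.5% of all tested genes were called higher), and 34 were called lower (14.7%, against 27.6% of all tested genes), so that 53.4% of the nhr genes and 63.0% of all genes were called in either direction. In N2, 80 were higher (34.5%, against 34.3%) and 31 were lower (13.4%, against 25.2%), or 47.8% against 59.5% in either direction. Fewer cells of a type and less RNA per cell cannot be told apart in such whole-animal libraries. The share of nhr genes called higher lay close to that of all genes in both genotypes. The median log2 change over the tested nhr genes was 0.32 in xnp-1 and 0.30 in N2, where all tested genes had medians of 0.11 in xnp-1 and 0.10 in N2. The calls of both genotypes coincided for 74 genes that were higher, which are 82.2% of those called in xnp-1 and 92.5% of those called in N2, and for 27 that were lower, which are 79.4% and 87.1%. No nhr gene was called in opposite directions. The overlap of calls over all tested genes was not worked out, so this agreement need not be particular to the nhr genes. Scaling by library totals instead of TMM moved the median of all genes in xnp-1 to 0.30 and the calls to 105 higher and 21 lower, where 39.8% and 18.1% of all genes were called (57.9% in either direction).

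**Figure D1:**
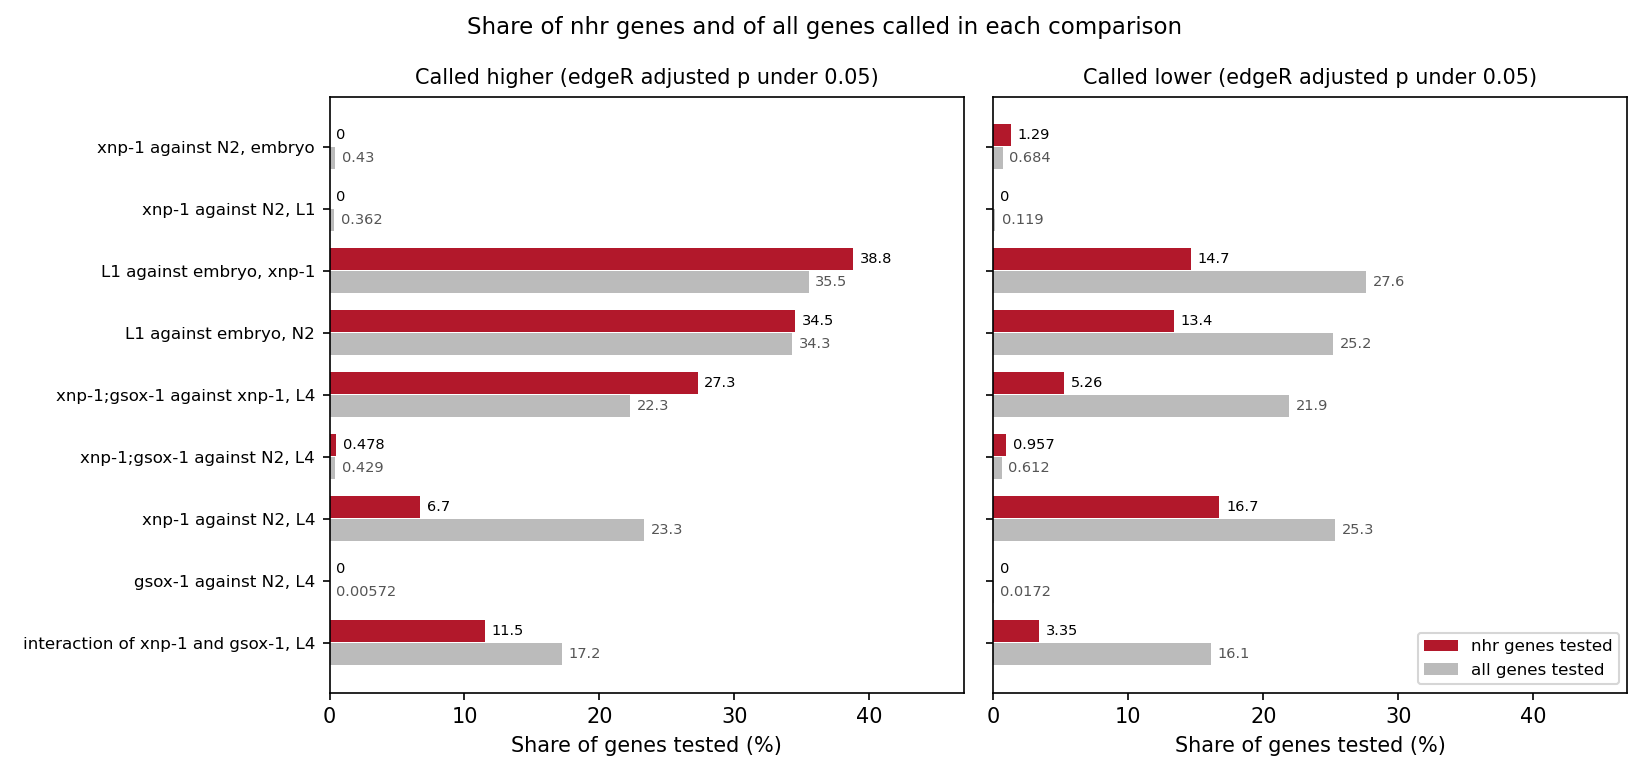
Share of tested nhr genes (red) and of all tested genes (grey) that were called higher or lower in each of 9 comparisons, in percent on the horizontal axis. Between L1 and embryo in N2, 34.5% of nhr genes and 34.3% of all genes were called higher, while at L4 in xnp-1 against N2 23.4% of nhr genes and 48.5% of all genes were called in either direction.

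The genes that rose at L1 included several with little or no described role and a few that are better known. The gene nhr-88 had 222, 116 and 92.3 CPM in xnp-1 L1 larvae, 331, 144.5 and 109.96 CPM in N2 L1 larvae, 25.7, 35.5 and 36.3 CPM in xnp-1 embryos and 41.4, 45.4 and 42.7 CPM in N2 embryos. Every L1 library of nhr-88 was above every embryo library, and replicate 1 was the highest L1 library in both genotypes. Its log2 change was 2.14 (SE 0.39) in xnp-1 and 2.18 (SE 0.39) in N2 (edgeR, adjusted p = 0.000737 and adjusted p = 0.000811). The gene nhr-7 had 34.2, 20.7 and 16.2 CPM in xnp-1 L1 larvae, 46.2, 22.9 and 16.9 CPM in N2 L1 larvae, 4.60, 5.12 and 4.97 CPM in xnp-1 embryos and 7.03, 6.22 and 4.79 CPM in N2 embryos. The L1 and embryo libraries of nhr-7 did not overlap, and replicate 1 was again the highest at L1. Its log2 change was 2.28 in xnp-1 and 2.25 in N2 (SE 0.37 in each).

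Among receptors placed in the stress and defence list, nhr-112 had 8.46, 6.26 and 5.00 CPM in xnp-1 L1 larvae, 9.13, 6.41 and 5.56 CPM in N2 L1 larvae, 0.903, 1.17 and 0.643 CPM in xnp-1 embryos and 2.19, 1.20 and 1.46 CPM in N2 embryos. All 6 L1 libraries exceeded all 6 embryo libraries, with log2 changes of 2.85 (SE 0.34) in xnp-1 and 2.11 (SE 0.33) in N2. In the same list, nhr-86, which senses a bacterial metabolite and drives the infection-response genes irg-4 and irg-5, had 17.3, 24.2 and 28.9 CPM in xnp-1 L1 larvae, 19.3, 25.4 and 27.3 CPM in N2 L1 larvae, 57.1, 54.4 and 56.4 CPM in xnp-1 embryos and 45.04, 51.9 and 52.3 CPM in N2 embryos. It fell in both genotypes without overlap, by 1.25 (SE 0.20) in xnp-1 and by 1.05 (SE 0.20) in N2 on the log2 scale. The log2 change of nhr-14, which regulates iron uptake and immunity, was −0.44 in xnp-1, where it was called, and −0.19 in N2, where it was not; its xnp-1 call was lost in 5 of 6 fits that left out a library. The log2 changes of nhr-57, a target of the hypoxia factor HIF-1, and nhr-176, which responds to the drug thiabendazole, passed in neither genotype. Of the 5 receptors in the list, 1 rose and 2 fell in xnp-1 and 1 rose and 1 fell in N2, with medians of −0.34 and −0.21.

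**Figure D2:**
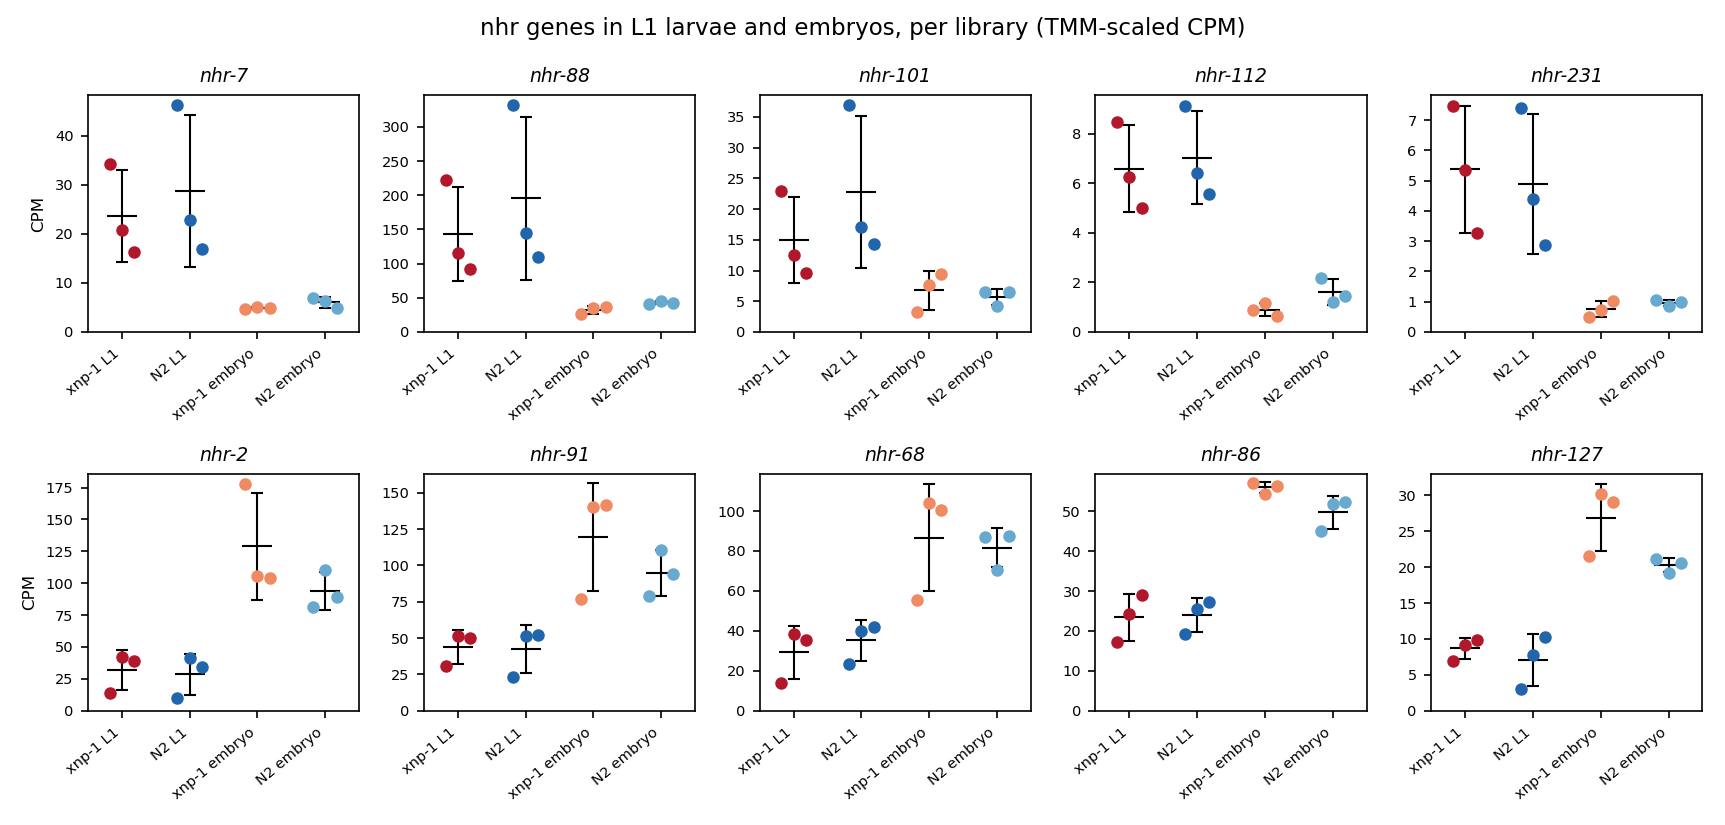
TMM-scaled CPM of 10 nhr genes in xnp-1 L1, N2 L1, xnp-1 embryo and N2 embryo libraries, on linear axes that start at 0, with each point a library and each bar the mean with its standard deviation over 3 libraries. For nhr-88, the L1 libraries lie between 92.3 and 331 CPM and the embryo libraries between 25.7 and 45.4 CPM, while for nhr-86 the L1 libraries lie below the embryo libraries.

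Further named genes that rose had low levels. The gene nhr-110 (WBGene00003700, chromosome V 1622264 to 1624440) had 3.56, 3.75 and 3.13 CPM in xnp-1 L1 larvae, 7.38, 5.74 and 3.55 CPM in N2 L1 larvae, 0.339, 0.280 and 0.232 CPM in xnp-1 embryos and 1.09, 0.821 and 1.08 CPM in N2 embryos. It rose without overlap in both genotypes, with a log2 change of 3.61 (SE 0.33) in xnp-1 and 2.47 (SE 0.30) in N2. The gene nhr-214 had 2.45, 2.37 and 2.24 CPM in xnp-1 L1 larvae, 3.02, 1.18 and 1.16 CPM in N2 L1 larvae, 0.0847, 0.0255 and 0.129 CPM in xnp-1 embryos and 0.340, 0.253 and 0.347 CPM in N2 embryos. The L1 libraries of nhr-214 were above the embryo libraries in both genotypes, and its log2 change was 4.83 in xnp-1 and 2.49 in N2. The other genes named by the same rule rose by log2 changes of 3.44 in xnp-1 and 2.96 in N2 (nhr-167), 3.44 and 2.62 (nhr-106), 2.45 and 2.40 (nhr-210), 2.83 and 2.33 (nhr-231), and 1.14 and 1.98 (nhr-101). The log2 change of nhr-290 was 2.58 in xnp-1, where it was called, and 0.35 in N2, where it was not. Naming was limited to genes with a mean log2 CPM of at least 0, and below that level nhr-155, nhr-27, nhr-9, nhr-38 and nhr-39 were called higher in both genotypes with larger fitted changes in N2 than any named gene. Their N2 libraries held 0.296 to 1.96 CPM in L1 larvae and 0 to 0.243 CPM in embryos, where a fitted change rests on few counts.

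Of the 5 tested receptors of the development list, nhr-2 alone was called at L1, and it fell in both genotypes. The gene nhr-2, which is transcribed in the early embryo (WBGene00003601, chromosome I 5818474 to 5821134), had 13.5, 42.3 and 39.4 CPM in xnp-1 L1 larvae, 9.87, 41.2 and 34.3 CPM in N2 L1 larvae, 177, 105 and 104 CPM in xnp-1 embryos and 81.3, 110.2 and 89.5 CPM in N2 embryos. L1 and embryo libraries did not overlap, and L1 replicate 1 was the lowest in both genotypes. The log2 change of nhr-2 was −2.02 (SE 0.49) in xnp-1 and −1.72 (SE 0.48) in N2 (edgeR, adjusted p = 0.00369 and adjusted p = 0.00958). In the same list nhr-1, nhr-31, which shapes the excretory cell, nhr-40, which acts in muscle development, and nhr-60 did not pass. The list's median was −0.20 in xnp-1 and 0.15 in N2, and that of all genes 0.11 and 0.10. Among genes named by rule, nhr-218 fell most, with log2 changes of −2.23 in xnp-1 and −2.21 in N2. The rule also named nhr-127 (−1.63 and −1.52) and nhr-270 (−1.46 and −1.25) in both genotypes. It named nhr-246 (−1.31), nhr-53 (−1.28) and nhr-12 (−1.26) in xnp-1 only, and nhr-43 (−1.06) and nhr-273 (−1.05) in N2 only.

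The receptors found across animals were mostly lower or not called at L1. In xnp-1, 2 of 9 tested members rose and 3 fell, and in N2 1 rose and 4 fell, with medians of −0.26 in xnp-1 and −0.14 in N2. The relative of vertebrate germ cell nuclear factor, nhr-91 (WBGene00003681, chromosome X 15309369 to 15314899), had 30.5, 51.4 and 50.1 CPM in xnp-1 L1 larvae, 23.2, 51.4 and 52.2 CPM in N2 L1 larvae, 76.6, 140.1 and 142 CPM in xnp-1 embryos and 79.1, 110.9 and 94.1 CPM in N2 embryos. It fell without overlap by 1.44 (SE 0.33) in xnp-1 and by 1.16 (SE 0.32) in N2. The testicular receptor relative nhr-41 had log2 changes of −0.61 in xnp-1 and −0.71 in N2, and its calls were lost in 4 and in 3 of 6 fits that left out a library. The gene nhr-111 fell by 1.55 in xnp-1 and by 1.54 in N2. The tailless relative nhr-67, which acts in the anchor cell of the gonad, had a log2 change of −0.31 in xnp-1 that did not pass, and fell by 0.58 in N2. The timing regulator nhr-85, a relative of an insect ecdysone-response receptor, rose by a log2 change of 1.05 in xnp-1 and 0.75 in N2, and the N2 call was lost in 2 of 6 such fits. The spermatheca regulator nhr-6 rose by 1.20 in xnp-1 and had a log2 change of 0.55 in N2 that did not pass. The xenobiotic and cholesterol regulator nhr-8 and its relative nhr-48 were called in neither genotype.

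Receptors of lipid and propionate metabolism moved in different directions at L1. Of 9 tested members, 1 rose and 3 fell in each genotype, with medians of −0.35 in xnp-1 and −0.08 in N2. The gene nhr-80, a relative of HNF4 that controls fatty acid desaturases (WBGene00003670, chromosome III 11985 to 14869), had 8.33, 6.53 and 8.10 CPM in xnp-1 L1 larvae, 12.7, 11.8 and 13.5 CPM in N2 L1 larvae, 2.09, 2.55 and 3.11 CPM in xnp-1 embryos and 5.28, 4.11 and 5.28 CPM in N2 embryos. It rose by a log2 change of 1.56 (SE 0.22) in xnp-1 and 1.37 (SE 0.22) in N2, and each genotype's L1 libraries lay above its embryo libraries. The gene nhr-68 had 14.1, 38.5 and 35.3 CPM in xnp-1 L1 larvae, 23.6, 40.1 and 42.0 CPM in N2 L1 larvae, 55.6, 104 and 101 CPM in xnp-1 embryos and 87.2, 70.5 and 87.4 CPM in N2 embryos. It fell without overlap by 1.56 (SE 0.35) in xnp-1 and by 1.21 (SE 0.35) in N2. The dietary restriction receptor nhr-62 fell by 0.76 in xnp-1 and by 0.61 in N2, and nhr-13, whose protein binds NHR-49, fell by 0.66 and by 0.63. The nhr-13 call was lost in 3 of 6 fits that left out a library in xnp-1 and in 5 of 6 in N2. The genes nhr-49, nhr-10, nhr-64, nhr-66 and nhr-114 were called in neither genotype.

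Known target genes of nhr receptors, not only of those in lipid and propionate metabolism, were also called at L1. Of 13 tested known targets, 7 rose and 3 fell in xnp-1 and 6 rose and 1 fell in N2, with medians of 1.05 and 1.03. The desaturase gene fat-6 had 71.5, 46.5 and 37.3 CPM in xnp-1 L1 larvae, 174, 58.4 and 54.2 CPM in N2 L1 larvae, 6.04, 12.4 and 12.1 CPM in xnp-1 embryos and 7.86, 7.14 and 6.95 CPM in N2 embryos, with log2 changes of 2.35 and 3.70. The desaturases fat-7 (2.23 in xnp-1 and 2.91 in N2) and fat-5 (1.05 and 1.03) also rose. The propionate breakdown gene acdh-1, a target of nhr-10 and nhr-68, fell by 1.92 in xnp-1, while its log2 change of −0.60 in N2 did not pass. The infection-response gene irg-5, a target of nhr-86, rose by a log2 change of 4.15 in xnp-1 and 3.54 in N2, while nhr-86 itself fell.

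The L1 libraries differed among themselves in a way that touched these results. In both genotypes L1 replicate 1 was the highest of its group for nhr-7, nhr-88, nhr-101, nhr-112 and nhr-231 and the lowest for nhr-2, nhr-68, nhr-91, nhr-43, nhr-86 and nhr-127. The same libraries had the lowest summed moulting markers of their groups (1266 CPM in xnp-1 and 691 CPM in N2), the lowest summed early zygotic markers (27.5 and 18.3 CPM) and the highest summed intestinal markers (3575 and 6455 CPM). The part of these marker levels in the stage results was not tested. Without replicate 1 of xnp-1 L1, 91 nhr genes were called in xnp-1, and without replicate 1 of N2 L1, 83 were called in N2. Without the xnp-1 embryo library that stood apart, replicate 1, 120 were called in xnp-1. The share of all tested genes called in these fits was not worked out, so a lower count need not be particular to the nhr genes.

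In embryos, xnp-1 and N2 differed for few nhr genes. Of 232 tested, 3 were called lower (1.29%) and none higher, where 1.11% of all tested genes were called, 0.684% of them lower and 0.430% higher. At an unadjusted p under 0.05 there were 29 of the 232 nhr genes, beside 2095 of all 17687 tested genes. Of the 232, 154 had a log2 change below 0, and the median was −0.13 against 0.03 over all tested genes. The gene nhr-290 (WBGene00016233, chromosome V 2574181 to 2575410) had 0.198, 0.280 and 0.309 CPM in xnp-1 embryos and 1.24, 0.664 and 1.49 CPM in N2 embryos, nhr-110 had 0.339, 0.280 and 0.232 CPM against 1.09, 0.821 and 1.08 CPM, and nhr-226 (WBGene00020850, chromosome V 2294877 to 2296977) had 1.36, 0.968 and 1.24 CPM against 2.80, 2.34 and 2.64 CPM. All 3 fell, with no overlap between xnp-1 and N2 embryos. DESeq2 called 8 nhr genes, all lower, where it called 3.28% of all genes (2.28% lower and 0.994% higher), and the replicate block over all groups called 5, where 1.91% of all genes were called (1.40% lower and 0.509% higher). For nhr-290, nhr-110 and nhr-226 the log2 changes were −2.09 (SE 0.41), −1.81 (SE 0.34) and −1.13 (SE 0.23), with adjusted p = 0.0273, 0.0225 and 0.0339 by edgeR. The calls depend on every library: leaving out any of 5 of the 6 embryo libraries left no nhr gene called, and leaving out replicate 2 of N2 left 2.

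In L1 larvae no nhr gene was called between xnp-1 and N2 by edgeR, where 0.481% of all tested genes were called (0.362% higher and 0.119% lower). At an unadjusted p under 0.05 there were 13 of 232 nhr genes, beside 1183 of all 17687 tested genes. DESeq2 called 1, nhr-80, with a log2 change of −0.73 (adjusted p = 0.0149), where it called 1.34% of all genes (0.727% higher and 0.613% lower). Of 232 tested genes, 167 had a log2 change below 0, and the median was −0.14 against 0.01 over all tested genes. The L1 levels of nhr-80 given above lay lower in all 3 xnp-1 libraries than in all 3 N2 libraries, with a log2 change of −0.72 that did not pass (adjusted p = 0.2998), and in embryos its log2 change was −0.92 (adjusted p = 0.0701). The gene nhr-87 (WBGene00003677, chromosome IV 1624029 to 1626705) had 17.6, 11.7 and 11.1 CPM in xnp-1 L1 larvae and 36.1, 19.4 and 22.3 CPM in N2 L1 larvae, and nhr-166 had 0.272, 0.567 and 0.457 CPM against 0.889, 1.12 and 0.993 CPM. The xnp-1 libraries of nhr-87 and nhr-166 lay below all N2 libraries. The result depends on how L1 replicates are paired: same-numbered xnp-1 and N2 L1 libraries deviated together, and a fit of these 6 libraries alone with the replicate number as a block called 23 nhr genes, all lower in xnp-1, where 11.6% of all tested genes were called, 8.03% lower and 3.52% higher. In that fit nhr-87 had a log2 change of −0.94 (adjusted p = 0.000719) and nhr-80 of −0.74 (adjusted p = 0.00457). The same block in a fit with all 12 libraries called none. Summed intestinal markers moved the same way, at 1960 to 3575 CPM in xnp-1 against 2976 to 6455 CPM in N2 L1 larvae and 934 to 1255 CPM in xnp-1 against 1620 to 2021 CPM in N2 embryos, with none of the 8 markers called; their part in the nhr values was not tested.

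**Figure D3:**
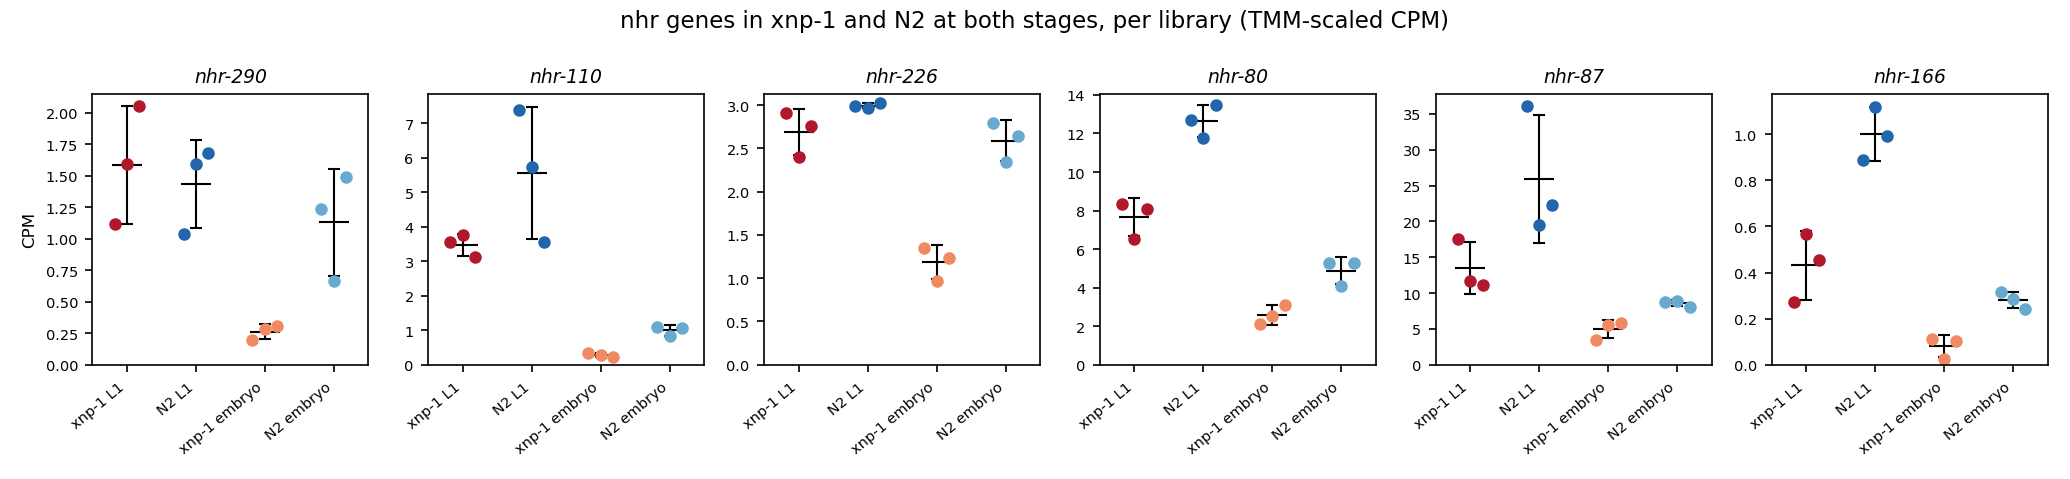
TMM-scaled CPM of nhr-290, nhr-110, nhr-226, nhr-80, nhr-87 and nhr-166 in xnp-1 L1, N2 L1, xnp-1 embryo and N2 embryo libraries on linear axes from 0, with each point a library and each bar the mean with its standard deviation over 3 libraries. In embryos the xnp-1 libraries of nhr-226 lie between 0.968 and 1.36 CPM and the N2 libraries between 2.34 and 2.80 CPM.

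The xnp-1 difference at L1 minus that in embryos was called for no nhr gene by edgeR, and for no gene in the whole table (0% called). At an unadjusted p under 0.05 there were 5 nhr genes and 454 genes in all, and DESeq2 called no nhr gene. The median difference was −0.03 over the nhr genes and −0.01 over all tested genes. For nhr-80 the difference was 0.19 (SE 0.31) on the log2 scale.

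At L4, xnp-1 and N2 larvae differed in 49 nhr genes, most of them lower in xnp-1. Of 209 tested, 14 were called higher (6.70%, against 23.3% of all tested genes) and 35 lower (16.7%, against 25.3%). Altogether 23.4% of the nhr genes and 48.5% of all genes were called, and the medians were −0.21 and −0.16. Every value of the xnp-1 larvae below stands beside the oocyte, yolk, adult collagen and moulting sums given above, whose part in it was not tested. Summed intestinal markers were 2224 to 4005 CPM in xnp-1;gsox-1, 3273 to 3427 CPM in xnp-1, 3985 to 4750 CPM in gsox-1 and 3596 to 5450 CPM in N2 L4 larvae; 3 of 8 were called lower in xnp-1 than in N2 and 2 of 8 higher in xnp-1;gsox-1 than in xnp-1, and their part was not tested either.

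Among called genes with a mean log2 CPM of at least 0, the largest decrease was that of nhr-234 (WBGene00012596, chromosome II 12636678 to 12638491). It had 0.742, 0.813 and 0.494 CPM in xnp-1 and 21.2, 11.4 and 20.6 CPM in N2 L4 larvae, so every xnp-1 library lay far below every N2 library. Its log2 change was −4.70 (SE 0.35, edgeR, adjusted p = 2.51e-06). The gene nhr-113 (WBGene00003703, chromosome I 11473218 to 11475662) had 0.297, 1.03 and 0.753 CPM in xnp-1 and 7.82, 4.59 and 8.97 CPM in N2, with no overlap and a log2 change of −3.35 (SE 0.39, adjusted p = 4.37e-05). The neighbouring nhr-245 had 0.0494, 0.295 and 0.329 CPM in xnp-1 and 0.847, 0.488 and 2.28 CPM in N2, a log2 change of −2.40, which became −1.55 with adjusted p = 0.0825 without replicate 3 of N2. The gene nhr-73 had 0.297, 0.148 and 0.518 CPM in xnp-1 and 3.49, 1.00 and 2.16 CPM in N2, with a log2 change of −2.77. The gene nhr-265 fell by 2.80, a call lost without replicate 3 of N2 and without replicate 3 of xnp-1. No read was counted for nhr-280 in the 3 xnp-1 libraries, and it had 0.598, 0.829 and 0.294 CPM in N2, so with a floor of 3 counts over the group it was at least 23.6-fold lower in xnp-1.

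Of 7 receptors found across animals that passed the filter, 1 rose and 3 fell, with a list median of −0.67. The level of nhr-91 was 3.73, 4.68 and 4.49 CPM in xnp-1 and 17.2, 10.8 and 36.2 CPM in N2, without overlap and with a log2 change of −2.31 (SE 0.46, adjusted p = 0.00152). The level of nhr-41 was 7.05, 9.41 and 9.74 CPM in xnp-1 and 17.5, 40.9 and 45.3 CPM in N2, with a log2 change of −1.98 (SE 0.46). The third gene to fall was nhr-67, at 0.445, 0.739 and 0.188 CPM in xnp-1 and 1.89, 0.927 and 1.45 CPM in N2 (−1.63, SE 0.47). The gene that rose, nhr-48, had 52.3, 58.3 and 63.5 CPM in xnp-1 and 14.3, 28.2 and 39.5 CPM in N2 (1.09, SE 0.36), and its call was lost in 4 of 6 fits that left out a library. The level of nhr-8 was 16.1, 13.6 and 15.7 CPM in xnp-1 and 17.02, 21.7 and 26.7 CPM in N2, with a log2 change of −0.53 that did not pass. None of the 5 stress and defence receptors passed, with a list median of 0.08.

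The largest increase among called genes with a mean log2 CPM of at least 0 was that of the early embryonic gene nhr-2. It had 7.34, 6.92 and 9.29 CPM in xnp-1 and 0.698, 0.341 and 0.245 CPM in N2 L4 larvae, every xnp-1 library lying above every N2 library, with a log2 change of 4.19 (SE 0.39, edgeR, adjusted p = 9.31e-06). It was the single development receptor called among 5 tested, where the list median was 0.09. Summed early zygotic markers were 2.81 to 6.49 CPM in xnp-1 and 0.490 to 1.63 CPM in N2 L4 larvae. Of 3 such markers tested, 2 were called higher in xnp-1, and their part in the nhr-2 values was not tested. The gene nhr-231 (WBGene00012449, chromosome V 18790958 to 18794784) had 4.85, 4.24 and 4.71 CPM in xnp-1 and 1.74, 1.29 and 1.47 CPM in N2, with a log2 change of 1.61 (SE 0.24). The gene nhr-71 had 27.2, 28.5 and 29.5 CPM in xnp-1 and 7.15, 13.4 and 14.98 CPM in N2, with a log2 change of 1.26 (SE 0.32). The further genes named by rule rose by log2 changes of 0.82 (nhr-243), 0.81 (nhr-12), 0.76 (nhr-84), 0.72 (nhr-274) and 0.67 (nhr-154), and the calls of nhr-12, nhr-84 and nhr-154 were lost in 2, 3 and 5 of 6 fits that left out a library. Among genes that fell, nhr-145 changed by −1.82 and nhr-87 by −1.61.

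Receptors of lipid and propionate metabolism split at L4, with 3 higher and 3 lower in xnp-1 among 9 tested and a list median of −0.13. The gene nhr-49 had 109, 115 and 129 CPM in xnp-1 and 55.8, 71.9 and 98.5 CPM in N2, with a log2 change of 0.64 (adjusted p = 0.0396) whose call was lost in 5 of 6 fits that left out a library. The proteins of nhr-66, nhr-13 and nhr-80 are known to bind NHR-49, and of these nhr-66 and nhr-13 rose and nhr-80 fell. The level of nhr-66 was 81.5, 87.5 and 95.0 CPM in xnp-1 and 29.8, 50.6 and 57.8 CPM in N2, with a log2 change of 0.93 (SE 0.26). The level of nhr-13 was 14.4, 12.2 and 12.9 CPM in xnp-1 and 8.47, 7.93 and 9.22 CPM in N2, with a log2 change of 0.63 (SE 0.19) whose call was lost in 2 of 6 such fits. The other genes of the list that fell were nhr-68 and nhr-114. The level of nhr-68 (WBGene00003658, chromosome V 11573440 to 11575709) was 78.3, 76.4 and 76.8 CPM in xnp-1 and 183, 125 and 121 CPM in N2, with a log2 change of −0.89 (SE 0.25, adjusted p = 0.0118). The level of nhr-114 (WBGene00003704, chromosome V 4187202 to 4190008) was 56.3, 80.5 and 74.9 CPM in xnp-1 and 96.1, 154 and 190.2 CPM in N2, with a log2 change of −1.06 (adjusted p = 0.00997). The level of nhr-80 was 12.01, 11.4 and 11.4 CPM in xnp-1 and 23.0, 18.03 and 20.8 CPM in N2, with a log2 change of −0.83 (SE 0.20). All of these sets of libraries were free of overlap. The gene nhr-10 had 20.8, 15.6 and 19.9 CPM in xnp-1 and 17.3, 18.4 and 22.3 CPM in N2, with a log2 change of −0.04, and neither nhr-64 (−0.13) nor nhr-62 (−0.66) passed.

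Among 13 tested known targets of nhr genes, not only of the lipid and propionate receptors, 7 fell and 1 rose in xnp-1 at L4, with a median of −1.03. The propionate breakdown gene acdh-1 had 1030.2, 1207 and 1157 CPM in xnp-1 and 2590.1, 2641 and 2489 CPM in N2, without overlap and with a log2 change of −1.19 (edgeR, adjusted p = 0.000119). The downstream genes hach-1 and hphd-1 fell by 1.03 and by 1.04, and the log2 change of alh-8 was −0.35 and did not pass. The desaturase gene fat-5 and the glyoxylate cycle gene icl-1 each fell by 1.36, the icl-1 call being lost in 3 of 6 fits that left out a library. The infection-response genes irg-4 and irg-5, targets of nhr-86, fell by 1.88 and by 3.16, while nhr-86 itself was not called (0.08). The target that rose was fmo-2, a flavin-containing monooxygenase, by a log2 change of 2.21 that was lost in 5 of 6 such fits. The log2 changes of fat-6, fat-7, acs-2 and cdr-4 were 0.23, −0.23, −0.77 and 0.32, and none passed.

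**Figure D4:**
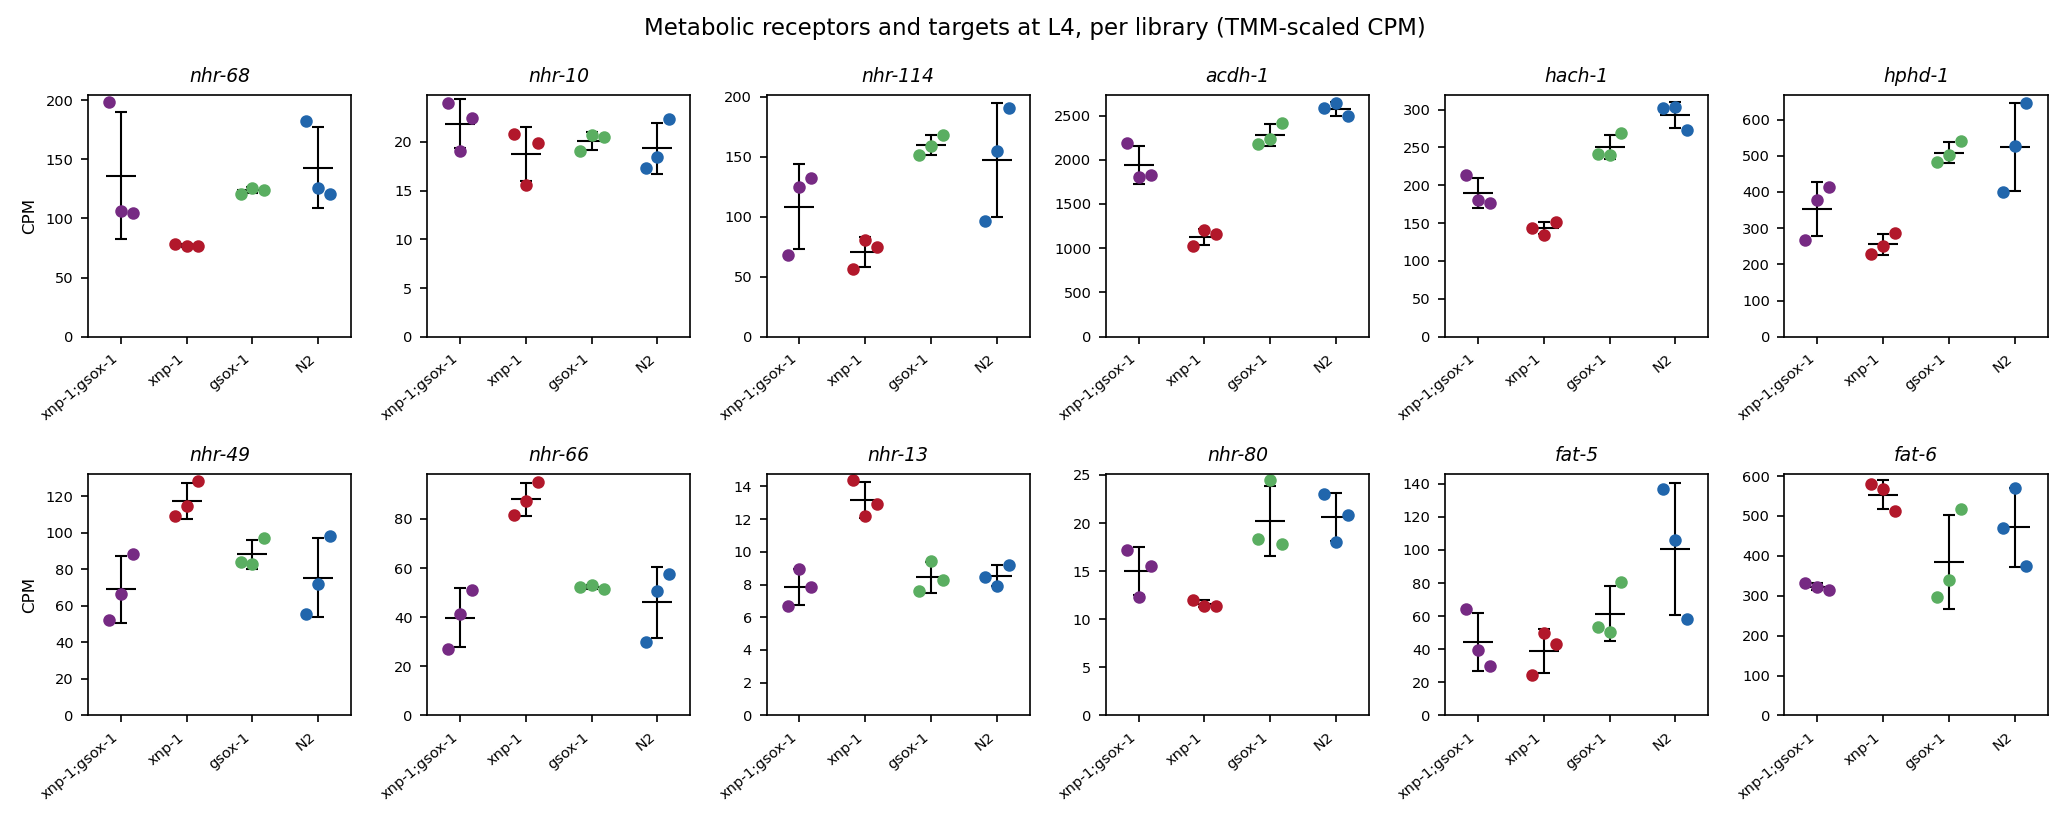
TMM-scaled CPM of nhr-68, nhr-10, nhr-114, nhr-49, nhr-66, nhr-13, nhr-80 and of the target genes acdh-1, hach-1, hphd-1, fat-5 and fat-6 in xnp-1;gsox-1, xnp-1, gsox-1 and N2 L4 libraries on linear axes from 0, with each point a library and each bar the mean with its standard deviation over 3 libraries. For acdh-1 the xnp-1 libraries lie between 1030.2 and 1207 CPM, below all other libraries, of which the lowest has 1804 CPM.

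In gsox-1 larvae no nhr gene was called. Between gsox-1 and N2 L4 larvae edgeR called none of 209, and 0.0229% of all tested genes (0.00572% higher and 0.0172% lower). At an unadjusted p under 0.05 there were 6 of 209 nhr genes, beside 858 of all 17492 tested genes. DESeq2 called no nhr gene, and the medians were 0.05 over the nhr genes and −0.02 over all genes. No gene of the lists of related receptors, cofactors, dafachronic acid synthesis and targets was called either.

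In the double background, 68 of 209 nhr genes differed from xnp-1 alone. Of these, 57 were higher in xnp-1;gsox-1 than in xnp-1 (27.3%, against 22.3% of all tested genes) and 11 were lower (5.26%, against 21.9%), or 32.5% against 44.2% in either direction. The median was 0.37 over the nhr genes and 0.09 over all genes. Without replicate 3 of xnp-1, 42 were called, and the share of all tested genes in that fit was not worked out. The gene nhr-234 had 26.2, 22.9 and 26.0 CPM in xnp-1;gsox-1 and 0.742, 0.813 and 0.494 CPM in xnp-1 (5.19, SE 0.36, edgeR, adjusted p = 1.93e-06). The gene nhr-113 had 6.90, 6.29 and 7.54 CPM in xnp-1;gsox-1 and 0.297, 1.03 and 0.753 CPM in xnp-1 (3.31, SE 0.39). The gene nhr-91 had 28.4, 32.4 and 42.5 CPM in xnp-1;gsox-1 and 3.73, 4.68 and 4.49 CPM in xnp-1 (3.00, SE 0.47). In all 3 genes the xnp-1;gsox-1 libraries lay above every xnp-1 library. The gene nhr-2 had 0.493, 0.656 and 0.482 CPM in xnp-1;gsox-1 and 7.34, 6.92 and 9.29 CPM in xnp-1, without overlap and lower by 3.84 (SE 0.38) on the log2 scale. The gene nhr-71 had 5.51, 12.7 and 11.97 CPM in xnp-1;gsox-1 and 27.2, 28.5 and 29.5 CPM in xnp-1, and the log2 change was −1.499.

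Further genes that were higher in xnp-1;gsox-1 than in xnp-1 were nhr-155 by 4.79, nhr-265 by 4.67, nhr-235 by 3.02, nhr-73 by 2.68, nhr-270 by 2.40, nhr-245 by 1.87 and nhr-208 by 1.79 on the log2 scale, of which the nhr-245 call was lost in 5 of 6 fits that left out a library. Further genes that were lower had log2 changes of −1.14 (nhr-66), −1.08 (nhr-274), −0.94 (nhr-256), −0.93 (nhr-76), −0.76 (nhr-49, lost in 3 of 6 such fits) and −0.75 (nhr-13). The gene nhr-280 had 0.739, 0.0437 and 0.0963 CPM in xnp-1;gsox-1 and no read in xnp-1. With a floor of 3 counts over the group, its counts summed over the xnp-1;gsox-1 group were at least 12.2-fold higher. That value rests mostly on replicate 1 and is no bound for the other libraries. The gene nhr-257 had no read in any xnp-1;gsox-1 library and 0.494, 0.246 and 0.282 CPM in xnp-1, so it was at least 14.9-fold lower with the same floor. The levels of nhr-66 were 27.0, 41.5 and 50.9 CPM in xnp-1;gsox-1 and those of nhr-13 were 6.72, 8.96 and 7.88 CPM, all below the xnp-1 libraries given above. The level of nhr-68 was 198, 106 and 104 CPM in xnp-1;gsox-1, higher than in xnp-1 by 0.82, a call lost in 4 of 6 such fits. By the group of lists, receptors found across animals had 3 higher and 0 lower with a median of 0.98, lipid and propionate receptors 2 higher and 3 lower with a median of 0.22, stress and defence receptors none with a median of 0.09, and development receptors 1 higher and 1 lower with a median of 0.00, where the median of all genes was 0.09.

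Against N2, the double background differed in 3 nhr genes, 1 higher and 2 lower (1.44%, against 1.04% of all tested genes, 0.429% higher and 0.612% lower). The gene nhr-155 (WBGene00015758, chromosome V 539460 to 541485) had 3.58, 3.21 and 4.12 CPM in xnp-1;gsox-1 and 0.498, 0.341 and 0.441 CPM in N2, with a log2 change of 3.08 (SE 0.60, edgeR, adjusted p = 0.0347). The gene nhr-181 (WBGene00018189, chromosome V 4095040 to 4100541) had 0.448, 0.350 and 0.578 CPM in xnp-1;gsox-1 and 1.54, 2.37 and 1.99 CPM in N2, with a log2 change of −2.10 (SE 0.44, adjusted p = 0.0473). The gene nhr-87 had 2.73, 1.35 and 2.51 CPM in xnp-1;gsox-1 and 5.16, 5.56 and 5.32 CPM in N2, with a log2 change of −1.28 (SE 0.27, adjusted p = 0.0473). The libraries of xnp-1;gsox-1 and N2 did not overlap for any of the 3 genes, which the naming rule required. Leaving out 1 library left 0 to 1 of these calls, the nhr-155 and nhr-181 calls being lost in 6 of 6 such fits and the nhr-87 call in 5 of 6. Same-numbered libraries of these groups deviated together, and the fit with a replicate block called 1 nhr gene over all groups (where 1.01% of all genes were called, 0.429% higher and 0.577% lower) and 11 over these groups alone (7 higher and 4 lower, where 9.87% of all genes were called, 3.43% higher and 6.44% lower). DESeq2 called 9, 6 higher and 3 lower, where it called 4.19% of all genes (1.41% higher and 2.78% lower), and scaling by library totals left 1 higher and 0 lower, where 1.02% of all genes were called (0.503% higher and 0.515% lower). No gene of the lists of receptors, cofactors, hormone synthesis and targets was called in this comparison. Summed yolk protein genes were 7.79 to 21.0 CPM in xnp-1;gsox-1 and 56.1 to 583 CPM in N2. Of 6 yolk genes tested, 2 were called lower, and no gene of the other marker lists was called. The part of the yolk difference in the nhr values was not tested. For nhr-87 the xnp-1 libraries had 1.53, 1.92 and 1.79 CPM and the gsox-1 libraries 4.62, 4.85 and 4.48 CPM.

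**Figure D5:**
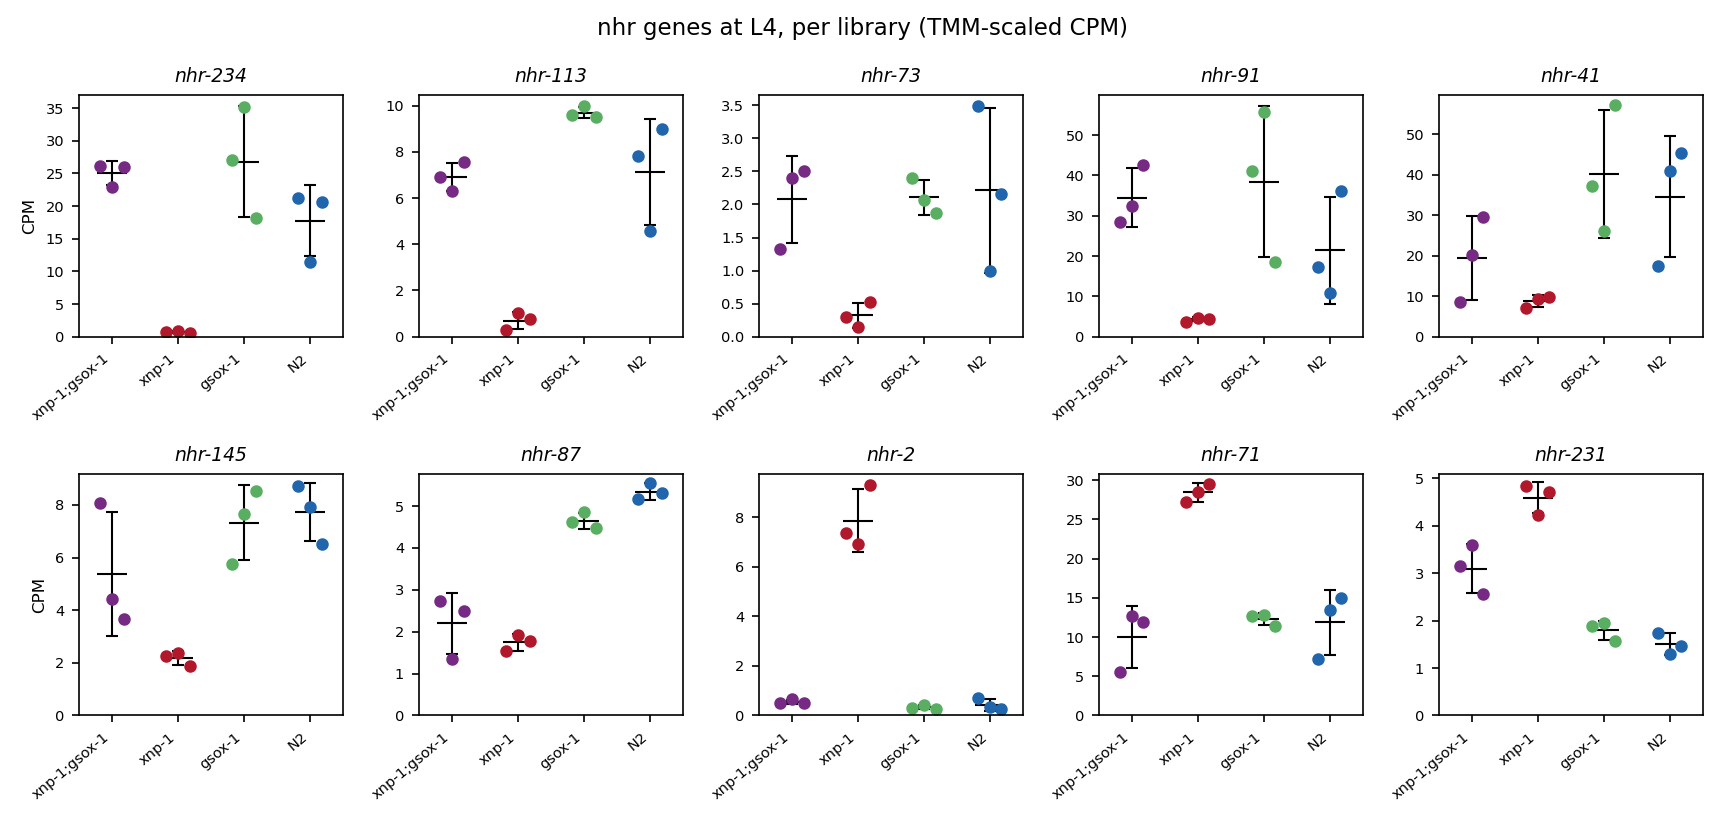
TMM-scaled CPM of 10 nhr genes in xnp-1;gsox-1, xnp-1, gsox-1 and N2 L4 libraries on linear axes from 0, with each point a library and each bar the mean with its standard deviation over 3 libraries. For nhr-2 the xnp-1 libraries lie between 6.92 and 9.29 CPM and all others at or below 0.698 CPM, and for nhr-234 the xnp-1 libraries lie between 0.494 and 0.813 CPM and all others at or above 11.4 CPM.

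The interaction tested whether the gsox-1 difference was another in the xnp-1 background than in N2; a positive value means that the xnp-1;gsox-1 minus xnp-1 difference exceeded the gsox-1 minus N2 difference. It was called for 31 of 209 nhr genes, 24 positive (11.5%, against 17.2% of all tested genes) and 7 negative (3.35%, against 16.1%), or 14.8% against 33.3% in all. The median was 0.34 over the nhr genes and 0.15 over all genes. Without replicate 3 of xnp-1, 17 were called, and without replicate 1 of gsox-1, 19. The shares of all tested genes in those fits were not worked out. Among called genes with a mean log2 CPM of at least 0, the largest positive values were those of nhr-234 (4.60, SE 0.44, edgeR, adjusted p = 6.99e-05), nhr-265 (3.39) and nhr-155 (3.07), and the largest negative value was that of nhr-2 (−3.46, SE 0.54, adjusted p = 0.00092). Below that level nhr-149 was called with 3.20, and nhr-280, which had no read in xnp-1, was called with a larger fitted value. The calls of nhr-234, nhr-113, nhr-155, nhr-73, nhr-58, nhr-8, nhr-2, nhr-71, nhr-66 and nhr-274 were kept in all 12 fits that left out 1 library. RNA of xnp-1 itself was also called, with an interaction of −0.94 (SE 0.29, edgeR, adjusted p = 0.0278).

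The genes nhr-58 and nhr-8 show different shapes of this interaction. The level of nhr-58 was 14.1, 9.16 and 6.53 CPM in xnp-1;gsox-1, 3.81, 3.47 and 3.76 CPM in xnp-1, 6.34, 7.55 and 6.35 CPM in gsox-1 and 8.27, 7.10 and 7.16 CPM in N2. Its xnp-1 libraries were the lowest, its log2 change in xnp-1 against N2 was −1.03, and its interaction was 1.58 (SE 0.37). The level of nhr-8 was 27.1, 26.0 and 36.5 CPM in xnp-1;gsox-1, 16.1, 13.6 and 15.7 CPM in xnp-1, 14.4, 17.1 and 13.98 CPM in gsox-1 and 17.02, 21.7 and 26.7 CPM in N2. Its interaction was 1.505 (SE 0.29), with the libraries of both single backgrounds below the lowest N2 library except for 17.1 CPM in gsox-1, and xnp-1;gsox-1 higher than xnp-1 by 0.98.

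Receptors outside the nhr names, cofactors and hormone synthesis genes were read from the same fits. Of 4 tested receptors with other names, 1 was higher and 1 lower in xnp-1 than in N2 at L4 (median −0.52). The sex determination receptor sex-1 rose by 0.80, a call lost in 2 of 6 fits that left out a library, and fax-1, which specifies neurons, fell by 1.68. The dafachronic acid receptor gene daf-12 had a log2 change of −0.43 that did not pass. Between L1 and embryo, 2 of 5 rose and 2 fell in each genotype (median 0.36 in xnp-1 and 0.10 in N2): daf-12 (0.61 in xnp-1 and 0.68 in N2) and the motor neuron receptor unc-55 (2.18 and 1.42) rose, while fax-1 fell by 0.63 and 0.65 and sex-1 fell by 1.59 and 1.69. Of 3 cofactors none was called in xnp-1 at L4 (median 0.16), and the corepressor gene din-1 fell at L1 by 0.61 in xnp-1 and by 0.65 in N2 (list medians −0.26 and −0.06, 1 of 3 called).

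Among genes of dafachronic acid synthesis, 2 of 5 tested fell in xnp-1 at L4 with a median of −0.26. The dehydrogenase gene dhs-16 had 14.5, 8.96 and 10.7 CPM in xnp-1;gsox-1, 0.692, 1.72 and 1.60 CPM in xnp-1, 10.0, 12.8 and 9.14 CPM in gsox-1 and 11.1, 5.71 and 7.92 CPM in N2. The methyltransferase gene strm-1, whose product lowers dafachronic acid levels, had 64.2, 25.0 and 22.9 CPM in xnp-1;gsox-1, 3.07, 3.08 and 3.76 CPM in xnp-1, 32.2, 43.0 and 15.9 CPM in gsox-1 and 40.4, 8.76 and 24.6 CPM in N2. In both genes the xnp-1 libraries lay below all others, with log2 changes in xnp-1 against N2 of −2.62 for dhs-16 and −2.89 for strm-1. At L1, 2 of 6 rose and 2 fell in each genotype (medians −0.08 in xnp-1 and −0.12 in N2). The P450 gene daf-9 rose by 2.84 in xnp-1 and 1.88 in N2 and hsd-1 by 3.98 and 2.86, while dhs-16 fell by 1.53 and 1.499 and strm-1 by 1.05 and 1.06. In the embryo and L1 comparisons of xnp-1 with N2, no gene of any list was called.

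The members lie mainly on chromosome V. That chromosome holds 167 of the 267 genes (62.5%), where 16.7% of all listed genes lie on it, and IV holds 33, I and X hold 22 each, II holds 15 and III holds 8. Another nhr gene lay within 10 kb of 159 members, in 44 groups, and 108 had none. Of 139 tested members with such a neighbour, 53 rose and 12 fell in N2 L1 larvae against embryos (38.1% and 8.63%), and of 93 without one, 27 rose and 19 fell (29.0% and 20.4%). Of all tested genes, 34.3% rose and 25.2% fell there. In xnp-1 against N2 at L4, 8 of 123 with a neighbour rose and 22 fell (6.50% and 17.9%), and 6 of 86 without one rose and 13 fell (6.98% and 15.1%). Here 23.3% of all tested genes rose and 25.3% fell. The group at chromosome V 2257420 to 2296977, which holds 9 genes and includes nhr-226, had all 9 above 0 in N2 L1 larvae against embryos, 6 of them called. The group at chromosome V 1603906 to 1629432, which includes nhr-110, had 7 of 7 above 0 and 4 called. In that comparison 59.5% of all tested genes were called in either direction, and 151 of the 232 tested nhr genes were above 0. Other large groups on chromosome V were less uniform. Tested genes above 0 were 10 of 12 from 451451, 8 of 9 from 2210510, 6 of 7 from 12092006 and 6 of 8 from 3844429. They were 3 of 6 from 15674007 and 3 of 7 from 6980587, with 2 and 1 called. Genes of a group are not independent of each other, and these counts were not tested.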

How the data were processed

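The gene-level count tables of poly(A) RNA libraries were used as deposited, and their values are whole-number counts per gene, not normalized. Per the file headers, the embryo and L1 counts are read pairs counted with featureCounts 2.0.1 and the L4 counts are reads (each mate counted) from featureCounts 2.0.6, both for the reverse strand with a minimum mapping quality of 10 and the WS280 annotation. The headers give a minimum overlap of 60 for the embryo and L1 counts and none for the L4 counts. Trimming with Trim Galore and alignment with STAR are named in the submitters' processing notes without versions. The 2 tables were fitted apart. In R 4.3.3, edgeR 4.0.16 kept genes with filterByExpr, scaled by TMM and fitted the quasi-likelihood model to 12 libraries in 4 groups; P-values were adjusted (Benjamini-Hochberg) over all genes kept, and a gene was called at an adjusted p under 0.05. Tests are two-sided and measure the spread between libraries labelled biological replicates. DESeq2 1.42.0, other scalings and filters, a replicate block and leaving out libraries were alternatives. The scripts were tested on simulated data. Figures were drawn with python 3.11.15 and matplotlib 3.10.9.

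The members, gene lists and tests were chosen with earlier results of these data known. Genes were named as the 10 with the largest absolute log2 change per direction among called genes with a mean log2 CPM of at least 0 and groups that did not overlap, plus the listed genes; nhr-280, nhr-257 and nhr-149 at L4, nhr-87, nhr-166, nhr-155, nhr-27, nhr-9, nhr-38 and nhr-39 at L1, and the neighbour groups were chosen after their values were seen. Lists were receptors found across animals, lipid and propionate metabolism, stress and defence, development, receptors with other names, cofactors, dafachronic acid synthesis and known targets; daf-21 was not matched, and nhr-111, nhr-239, odr-7 and hsd-1 were not tested at L4. Replicate numbers came from the labels. Same-numbered libraries of 2 groups were taken as paired where the correlation of their deviations from the group means exceeded 0.1 in every pair: 0.505 to 0.785 for xnp-1 and N2 L1, 0.319 to 0.548 for xnp-1;gsox-1 and N2 L4, 0.136 to 0.271 for xnp-1;gsox-1 and xnp-1 L4, and 0.151 to 0.236 for xnp-1 and N2 L4. The small RNA table was not used here.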

Additional observations from a re-analysis of the deposited data

Results flagged for a closer look

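The difference that gsox-1 made at L4 depended on the xnp-1 background in 31 of 209 tested nhr genes by the interaction test (14.8%, where 33.3% of all tested genes were called). Among genes with a mean log2 CPM of at least 0, positive values, where xnp-1;gsox-1 exceeded xnp-1 by more than gsox-1 exceeded N2, were 4.60 for nhr-234, 3.39 for nhr-265, 3.07 for nhr-155, 2.86 for nhr-113, 2.75 for nhr-73, 2.33 for nhr-235, 2.15 for nhr-91, 1.86 for nhr-270, 1.58 for nhr-58 and 1.505 for nhr-8 on the log2 scale. Negative values were −3.46 for nhr-2, −1.94 for nhr-181, −1.55 for nhr-71, −1.33 for nhr-66, −1.002 for nhr-274, −0.99 for nhr-49 and −0.86 for nhr-76. The calls of nhr-265, nhr-235, nhr-270, nhr-76 and nhr-49 were lost in 6, 8, 9, 8 and 10 of 12 fits that left out a library, that of nhr-181 in 4, and that of nhr-91 with an adjusted p of 0.0501 without replicate 1 of xnp-1. The xnp-1 libraries of this contrast carried the oocyte, yolk, adult collagen and moulting marker levels given above, and genotype and developmental progress cannot be told apart in it.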

How the results depend on the processing

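No named gene's log2 change turned its sign under any alternative, but the balance of calls turned for xnp-1;gsox-1 against N2. Genes named by rule were picked for large changes without overlap in these same libraries, so a kept sign is a weak check. For xnp-1 against N2 in embryos (3 called), the replicate block over all groups gave 5 and DESeq2 gave 8, and leaving out a library gave 0 to 2; the groups compared alone gave 1 higher beside 3 lower, where all 3 had been lower. In L1 larvae (0 called), DESeq2 gave 1 and the fit of the groups compared with the replicate block gave 23. For xnp-1;gsox-1 against N2 (3 called, 1 higher and 2 lower), library totals gave 1 (1 higher and 0 lower), the replicate block over all groups 1 (lower), DESeq2 9 (6 higher and 3 lower), the groups compared alone 0, and these with the replicate block 11 (7 higher and 4 lower), and leaving out a library gave 0 to 1. Leaving out a library gave 42 to 68 for xnp-1;gsox-1 against xnp-1 and 17 to 29 for the interaction. Shares of all tested genes were not worked out for any fit that left out a library. The counts of the other comparisons stayed within 1.5 times under every setting tried, between 91 and 131 in xnp-1 and 83 and 122 in N2 for L1 against embryo, and 33 and 53 for xnp-1 at L4, while gsox-1 and the difference of the xnp-1 effect stayed at 0. The replicate block changed no other call count by over 1.5 times. Of the named genes' alternative values 2272 stayed on their side of the threshold and 242 lost the call; the cause was not tested. With 3 libraries per group, low receptors such as nhr-290 rest on few counts, and differences under their spread were not detectable.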
